A study of Mus musculus with 30 samples.

Results

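The 9 genes described here were the salt-inducible kinases Sik1, Sik2 and Sik3, the related kinase Nuak2, the CREB-regulated transcription coactivators Crtc1, Crtc2 and Crtc3, and the Tribbles pseudokinases Trib1 and Trib3. They were chosen by symbol from the 24761 gene symbols of the table, and for each the transcript with the highest mean over all 30 libraries was used. The cells were macrophages that had been grown with M-CSF from marrow of C57Bl/6 mice of wild-type genotype. All cultures received a pretreatment of 2 h, either with the vehicle DMSO (7 cultures, named D3 to D6, UKD, r1 and r2) or with 1 µM metaproterenol hemisulfate, MPH, an agonist of the β2 adrenergic receptor (3 cultures, M2 to M4). Each culture gave 1 library without LPS (0 h) and libraries after 1 and 2 h of LPS, the bacterial lipopolysaccharide that activates Toll-like receptor 4, at a dose labelled 100 ng/µL. The comparisons ask what MPH does before and during the response to LPS. The labels do not say whether the cultures came from separate mice. The main tests took libraries of the same culture as independent, so p-values measure the spread between these libraries, not between mice. The 1 and 2 h samples also had more time after the start of the pretreatment than the 0 h samples, and the effects of LPS and of that time cannot be told apart.

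The β2 adrenergic receptor couples to Gs and raises cyclic AMP, which activates protein kinase A (PKA). SIKs, switched on by the kinase LKB1, keep the CRTCs phosphorylated and held in the cytoplasm by 14-3-3 proteins. PKA phosphorylates and inactivates SIKs, and the freed CRTCs enter the nucleus, where they join the transcription factor CREB at cyclic AMP response elements. Sik1 is itself a CREB target, which makes it a feedback inhibitor of the pathway, and in macrophages SIK activity is known to restrain production of the anti-inflammatory cytokine IL-10. Tribbles proteins lack normal kinase activity and act as scaffolds, bringing substrates such as C/EBPα to the ubiquitin ligase COP1. RNA levels do not report on phosphorylation or on where a protein sits in the cell.

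Levels are given in RPKM, reads scaled by the length of the transcript and by the depth of the library, and so can be compared between genes. Fold changes are differences of log2(RPKM + 0.5), a scale that understates changes of low genes, and adjusted p-values are from limma over all genes tested. The summed level of 8 macrophage markers was 3761 to 7226 RPKM in every library, while the B cell markers Ms4a1 and Ebf1 stayed under 0.1 RPKM in all libraries. The summed level of 8 neutrophil markers at 0 h was 4.85 to 43.5 RPKM in D3 to D6 and 36.5 to 47.1 RPKM in the MPH cultures. None of the 8 neutrophil markers passed the test for MPH at 0 h, and their part in the results was not tested. The libraries held about 5.38 to 92.1 M reads (M, mega), and the shallowest were those of D6, UKD and D4 at 1 h. This estimate takes the typical value of transcripts under 0.1 RPKM in all libraries as 1 read. The library labelled M4 at 1 h stood apart: over 66 genes that were higher with MPH at 0 h (none of them a gene described here), its mean log2 difference from D3 to D6 was 0.03, against 1.39 in M2 and 1.28 in M3 at that time. The main results at 1 h under MPH are therefore also given without it.

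In DMSO cultures at 0 h, Trib3 had the highest mean level, 9.30 ± 6.21 RPKM (SD, n = 7), and Crtc2 followed with 6.53 ± 1.35 RPKM. These neighbours were not separated, since Trib3 was above Crtc2 in 4 of 7 libraries. Nuak2 (4.26 ± 0.97 RPKM) and Sik3 (3.92 ± 0.27 RPKM) came next, in that order in 5 of 7 libraries. Sik2 at 3.35 ± 0.41 RPKM was below Sik3 and above Crtc3, at 2.55 ± 0.53 RPKM, in all 7 libraries. The lowest levels were those of Sik1 (1.65 ± 0.71 RPKM), Crtc1 (1.48 ± 0.44 RPKM) and Trib1 (1.05 ± 0.51 RPKM), with Sik1 above Crtc1 in 4 of 7 libraries. In MPH cultures at 0 h the order differed: Nuak2 was highest at 18.7 ± 1.53 RPKM (SD, n = 3), above Trib3 in 3 of 3 libraries. Sik1 stood at 9.75 ± 1.71 RPKM, and Trib3, at 10.1 ± 5.68 RPKM, was above it in 1 of 3 libraries. The least variable gene among DMSO cultures at 0 h was Sik3, with a coefficient of variation of 6.99%, and the most variable was Trib3, with 66.7%.

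**Figure D1:**
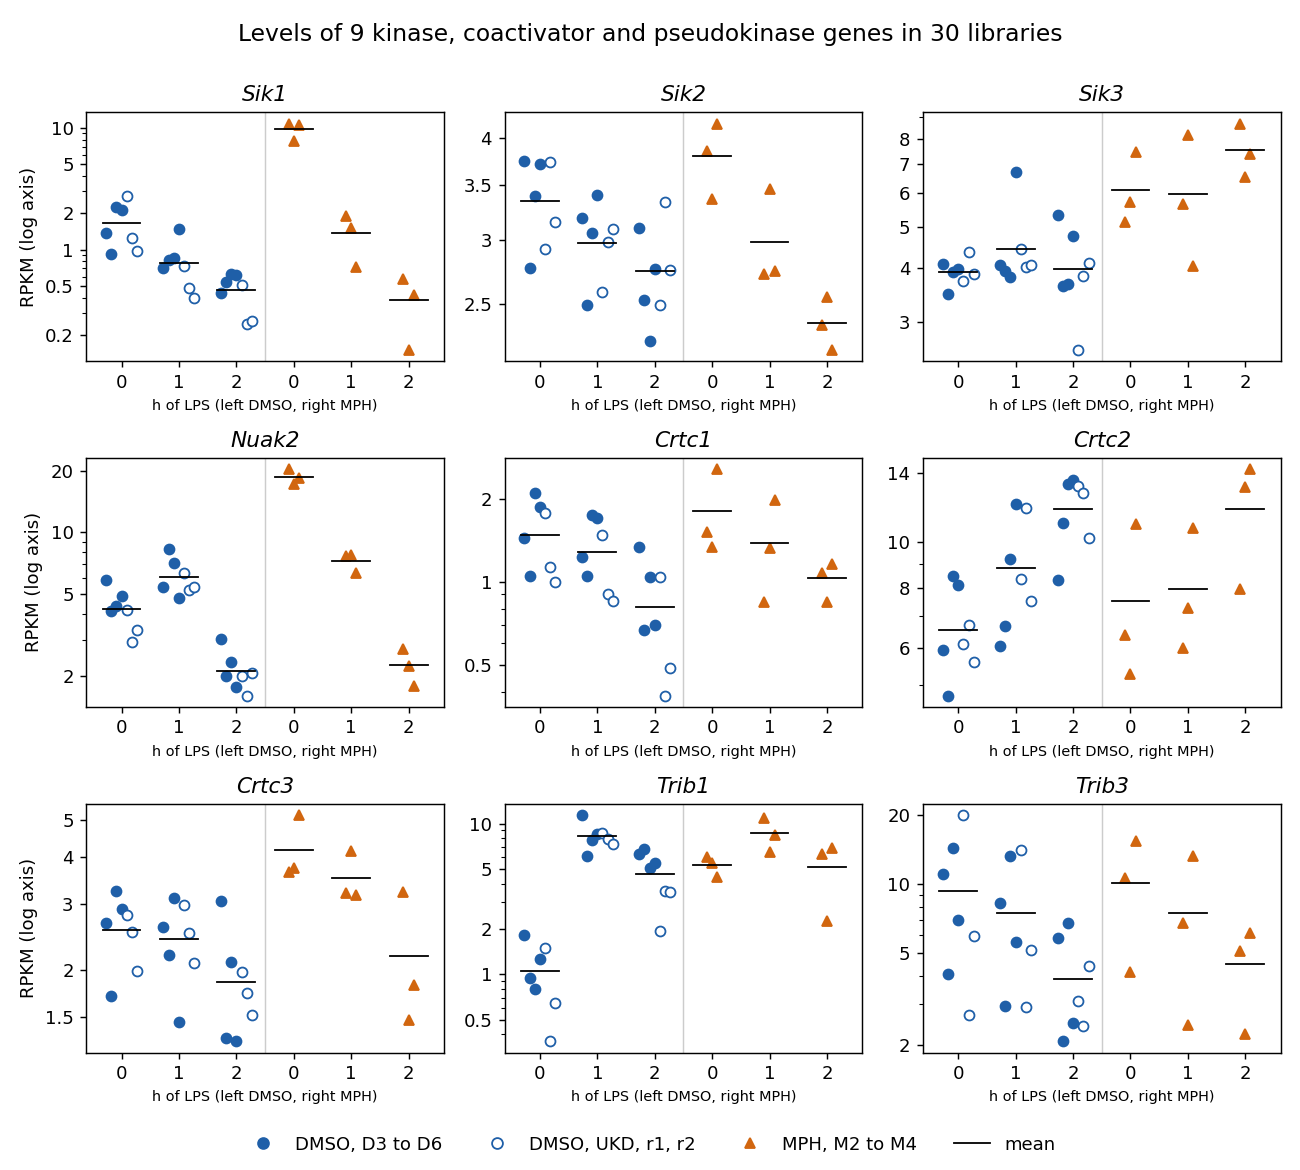
RPKM (log axis) of each gene in every library, by h of LPS, with DMSO cultures as circles (filled for D3 to D6, open for UKD, r1 and r2), MPH cultures as triangles and the mean of each group as a line. At 0 h the MPH cultures lie above all DMSO cultures for Sik1, Nuak2 and Trib1, while at 2 h the MPH and DMSO points of these genes overlap.

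Before LPS, MPH raised the RNA of 3 of the 9 genes, Sik1, Nuak2 and Trib1, which are 1 member each of the SIK, NUAK and Tribbles families. No gene of the 9 was lower. In bulk RNA, more cells with a transcript and more of it per cell cannot be told apart. Among the 10239 genes tested, 0.674% were called higher and 0.869% were called in either direction. The latter share was 0.304% to 0.471% when D4, D5, D6, M2 or M3 was left out and 1.61% without the 1 h library of M4, and the 3 genes were called in each of these fits. The comparison used D3 to D6 as DMSO cultures, because no MPH culture shares the names of the others. The median log2 difference was 0.58 over the 9 genes and -0.04 over all genes tested.

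Sik1, the cyclic AMP-induced SIK, was at 1.36, 0.91, 2.22 and 2.10 RPKM in D3, D4, D5 and D6 at 0 h. In M2, M3 and M4 it was at 10.85, 7.77 and 10.63 RPKM. The groups did not overlap, and the lowest MPH culture lay well above UKD, the highest of all 7 DMSO cultures at 2.76 RPKM. The ratio of means was 5.91, and the log2 difference was 2.29 ± 0.26 (SE), with an adjusted p of 0.0001267. Sik1 made up 18.2 ± 6.59% of the summed RPKM of the 3 SIK genes in DMSO cultures at 0 h and 49.5 ± 4.56% in MPH cultures.

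Nuak2 encodes a kinase of the AMPK-related family that, like the SIKs, is a substrate of LKB1. Its levels in D3 to D6 at 0 h were 5.88, 4.16, 4.38 and 4.88 RPKM, and those in M2 to M4 were 20.30, 17.27 and 18.40 RPKM. Every MPH library was thus far above every DMSO library, with little spread within either group. The ratio of means was 3.87, and the log2 difference of 1.85 ± 0.19 had an adjusted p of 5.415e-05. By p-value Nuak2 ranked 2, Sik1 6 and Trib1 20 of 10239 genes.

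Trib1, which directs C/EBPα to COP1 and is known to be needed for some tissue macrophages, was at 1.81, 0.95, 0.80 and 1.26 RPKM in D3 to D6 and at 6.03, 5.45 and 4.44 RPKM in M2 to M4. The MPH libraries were again all higher, with a ratio of means of 4.40 and a log2 difference of 1.79 ± 0.29 (adjusted p = 0.004404). This call was lost when the culture was fitted as a random block (adjusted p = 0.0558), in which case 2 of the 9 genes, Sik1 and Nuak2, and 0.244% of all genes were called.

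The other SIKs moved less. Sik3, the broadly expressed member, was at 4.10, 3.49, 3.91 and 3.98 RPKM in D3 to D6 and at 5.12, 5.71 and 7.47 RPKM in M2 to M4. Its MPH libraries were all above the DMSO libraries, but the log2 difference of 0.58 ± 0.21 did not pass (adjusted p = 0.408). Sik2, best known from fat tissue, was at 3.75, 2.77, 3.40 and 3.72 RPKM in DMSO and 3.86, 3.37 and 4.17 RPKM in MPH cultures, and its groups overlapped. Its log2 difference was 0.14 ± 0.14.

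Of the CRTCs, the targets of the SIKs, none passed the test. Crtc3, known for its part in catecholamine signalling in fat, was at 2.67, 1.71, 3.24 and 2.90 RPKM in D3 to D6 and at 3.64, 3.72 and 5.15 RPKM in M2 to M4. All 3 MPH libraries were higher than the 4 DMSO libraries, with a log2 difference of 0.59 ± 0.27 (adjusted p = 0.7005). Crtc1 and Crtc2 overlapped between groups, with log2 differences of 0.12 ± 0.24 and 0.10 ± 0.29. Trib3, a gene of the ATF4 stress response, also overlapped, and its log2 difference was 0.10 ± 0.59. In all, 5 of the 9 genes did not overlap between MPH and DMSO at 0 h, all of them higher with MPH, where 3.56% of the genes tested were higher without overlap.

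**Figure D2:**
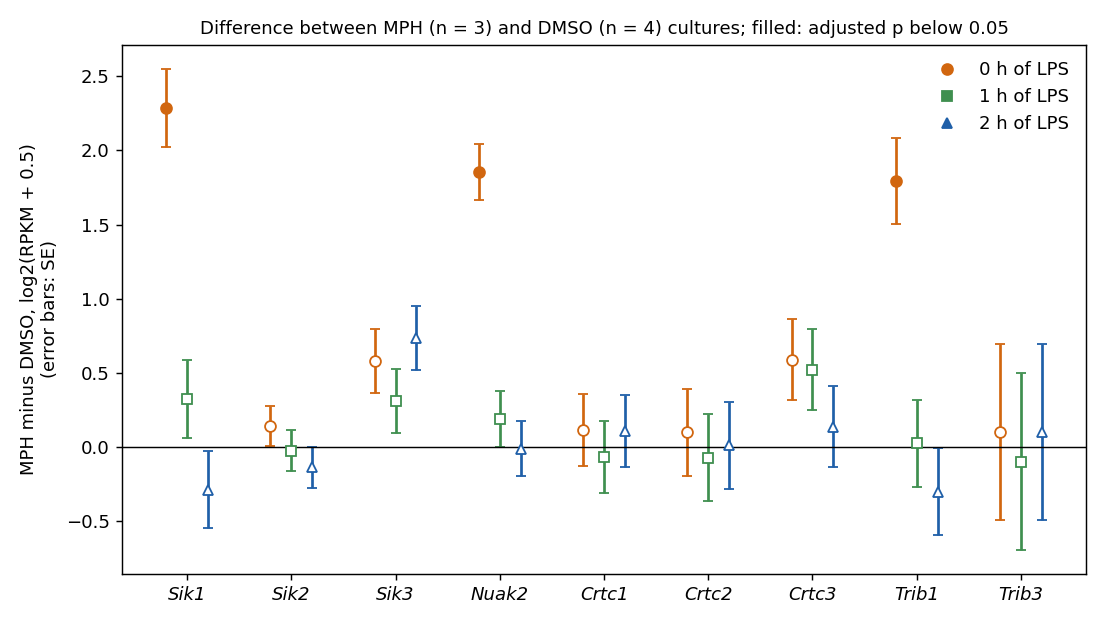
Difference between MPH (n = 3) and DMSO cultures (D3 to D6, n = 4) for each gene at 0, 1 and 2 h of LPS, as log2(RPKM + 0.5) with SE, filled where the adjusted p was below 0.05. The filled points are those of Sik1 (2.29), Nuak2 (1.85) and Trib1 (1.79) at 0 h.

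Promoter sequences of 5 of the 9 genes were taken from the RefSeq table (GRCm38.p6, which differs from the mm9 build of the files), as the 250 bases before the annotated start; those of Sik1, Nuak2, Crtc2 and Trib1 were not used here. Those of Sik3 and Crtc3 are shown as the pair that was higher without overlap but did not pass, and that of Trib3 as a gene whose groups overlapped. Capitals mark TGACG, the core of the cyclic AMP response element, or its reverse complement. They lie at chr9:46012570-46012819 (plus strand) for Sik3, chr7:80688878-80689127 (minus strand) for Crtc3 and chr2:152344061-152344310 (minus strand) for Trib3, each written 5′ to 3′ along its gene.
Sik3: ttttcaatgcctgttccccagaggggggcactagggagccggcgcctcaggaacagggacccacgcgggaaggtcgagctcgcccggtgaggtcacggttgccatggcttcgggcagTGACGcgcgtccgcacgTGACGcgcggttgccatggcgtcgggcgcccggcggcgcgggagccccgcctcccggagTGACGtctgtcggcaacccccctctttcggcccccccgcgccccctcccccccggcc
Crtc3: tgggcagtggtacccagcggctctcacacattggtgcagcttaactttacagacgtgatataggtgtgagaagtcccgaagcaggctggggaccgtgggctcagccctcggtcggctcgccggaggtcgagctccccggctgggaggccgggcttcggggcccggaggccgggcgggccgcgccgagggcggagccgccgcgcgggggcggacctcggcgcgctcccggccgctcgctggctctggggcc
Trib3: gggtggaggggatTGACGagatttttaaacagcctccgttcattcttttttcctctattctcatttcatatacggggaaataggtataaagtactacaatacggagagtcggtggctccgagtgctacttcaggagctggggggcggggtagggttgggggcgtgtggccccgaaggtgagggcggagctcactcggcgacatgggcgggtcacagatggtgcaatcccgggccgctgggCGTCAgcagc
Both strands were searched for TGACG, for the full element TGACGTCA, which contains TGACG on each strand, and for the C/EBP-ATF composite TGATGCAA. The Sik3 window held TGACG at 133, 116 and 57 bases before the start, and the Trib3 window held it at 237 and, reversed, at 10 bases before the start. The Crtc3 window held none of the 3 motifs, and neither did the windows of Sik2 and Crtc1, which are not shown. TGACG occurred in 17.8% of 32851 promoter windows of this length, TGACGTCA in 1.55% and TGATGCAA in 0.791%. A match is a description of letters and not a binding site.

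Among the other genes of the pathway at 0 h, calls fell on a CREB factor and on targets of CREB. Of all genes tested, 0.869% were called and 0.674% were called higher. At such a share, a list of 4 to 7 genes without a call does not stand out. None of the 5 LKB1 complex genes, the 7 tested of 9 PKA subunits and inhibitors, the 7 genes of the 14-3-3 family or the 4 calcineurin genes was called. The same held for the 6 tested of 11 other AMPK-related kinases, the 7 class IIa HDACs and MEF2 factors, the 6 tested of 7 Tribbles partners and the 6 stress genes known with Trib3. The medians of these 8 lists lay between -0.09 and 0.12. Neither a small list median nor the lack of a call shows that each gene was unchanged. Of 5 CREB factors and coactivators, Crem, which encodes the repressor ICER, was higher by 3.87 ± 0.80 (adjusted p = 0.02427). Of 12 CREB target genes, 7 were called, all higher, with a list median of 2.28. They included the phosphodiesterase gene Pde4b (2.94 ± 0.31, adjusted p = 8.231e-05) and the orphan nuclear receptor gene Nr4a2 (4.62 ± 0.62, adjusted p = 0.0006592). These lists were drawn up with earlier results of these data known.

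At 1 h of LPS, none of the 9 genes passed the test for MPH against DMSO, where 0% of genes were called; 0 of the 9 and 327 of 10239 genes had an unadjusted p under 0.05. Without the 1 h library labelled M4, again none of the 9 was called, but 1.34% of genes were. Sik1 was at 0.70, 0.82, 0.86 and 1.48 RPKM in D3 to D6 and at 1.90, 1.49 and 0.71 RPKM in M2 to M4, so that M4 alone lay within the DMSO range. Its log2 difference was 0.32 ± 0.26, and 0.61 ± 0.27 (adjusted p = 0.4717) without that M4 library. Nuak2 differed by 0.19 ± 0.19 and Trib1 by 0.03 ± 0.29, and both overlapped between groups. Without that M4 library these values were 0.28 and 0.03. Crtc3, at 2.60, 2.20, 3.11 and 1.46 RPKM in DMSO and 3.19, 4.14 and 3.16 RPKM in MPH cultures, was the single gene of the 9 without overlap (0.918% of all genes were higher without overlap), with a difference of 0.52 ± 0.27. Without that M4 library the difference was 0.58 ± 0.32 for Crtc3 and 0.54 ± 0.22 for Sik3, and neither passed (adjusted p = 0.6277 and 0.4122).

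At 2 h, again none of the 9 genes was called, where 0.869% of genes were. That share was 0.00986% without M3, 0.0197% without D4, 0.0196% without D5, 0.255% without D6, 0.265% without M2 and 2.1% without the 1 h library of M4. One of the 9 had an unadjusted p under 0.05. This was Sik3, at 5.34, 3.63, 3.68 and 4.75 RPKM in D3 to D6 and at 8.71, 6.53 and 7.39 RPKM in M2 to M4. All MPH libraries lay above all DMSO libraries, as 4.29% of the genes did, with a ratio of means of 1.73 and a log2 difference of 0.74 ± 0.21 (adjusted p = 0.1338). With all 7 DMSO cultures in the fit the value was 0.81 and passed (adjusted p = 0.009294), as it did with estimated library weights (0.78, adjusted p = 0.03873). Calls were more common in those fits, with 3.91% and 2.6% of all genes. With the culture as a random block, under which 0.0195% of genes were called, the adjusted p of Sik3 was 0.6336. Sik1 differed by -0.29 ± 0.26, Nuak2 by -0.01 ± 0.19 and Trib1 by -0.30 ± 0.29, and each overlapped between groups.

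Under DMSO, over all 7 cultures, Trib1 and Nuak2 rose and Sik1 fell after 1 h of LPS, and after 2 h Trib1 and Crtc2 were higher than at 0 h while 6 of the 9 genes were lower. At 1 h, 3 of the 9 genes were called, 2 higher and 1 lower, where 20.3% of 10212 genes were called, 5.24% higher and 15% lower. At 2 h, 8 of the 9 were called and 54.1% of all genes, 10.5% higher and 43.6% lower. With the culture as a fixed block, 8 of the 9 and 76.9% of all genes were called at 2 h. The median over all genes fell with LPS, to -0.15 at 1 h and -0.25 at 2 h, and median-of-ratios scaling of the libraries brought it to about 0. With that scaling 2 of the 9 genes were higher and 3 lower at 2 h, and among all genes 1874 were higher and 1889 lower in place of 1075 and 4454.

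Trib1 ranged from 0.36 to 1.81 RPKM at 0 h (median 0.95), from 6.14 to 11.38 RPKM at 1 h (median 7.96) and from 1.93 to 6.81 RPKM at 2 h (median 5.08). No 1 h or 2 h library overlapped with those at 0 h, and the lowest at 2 h was UKD. The log2 change at 1 h was 2.55 ± 0.20 (adjusted p = 1.159e-08), higher in 7 of 7 cultures. It was 1.72 ± 0.20 at 2 h (adjusted p = 1.04e-06), with means of 1.93 in the D cultures, 2.02 in the r cultures and 0.28 in UKD. From 1 to 2 h Trib1 fell by 0.83 ± 0.20 (adjusted p = 0.005833), which did not pass with D3 to D6 fitted beside the MPH cultures (-0.46, adjusted p = 0.4506).

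Nuak2 had a peak in between. Its range was 2.93 to 5.88 RPKM at 0 h (median 4.21), 4.79 to 8.32 RPKM at 1 h (median 5.42) and 1.61 to 3.03 RPKM at 2 h (median 2.00). All 1 h libraries lay above all 2 h libraries. The rise to 1 h was 0.48 ± 0.12 (adjusted p = 0.008921), seen in 5 of 7 cultures, and it did not pass without r1 (0.43, adjusted p = 0.05161) or with D3 to D6 fitted beside the MPH cultures (0.36, adjusted p = 0.3551). The fall from 1 to 2 h was -1.33 ± 0.12 (adjusted p = 8.928e-07) in 7 of 7 cultures, and at 2 h Nuak2 was below 0 h by -0.85 ± 0.12 (adjusted p = 1.081e-05).

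Sik1 was at 0.91 to 2.76 RPKM at 0 h (median 1.36), 0.40 to 1.48 RPKM at 1 h (median 0.73) and 0.25 to 0.63 RPKM at 2 h (median 0.51). Every 2 h library was below every 0 h library, and all 7 cultures fell at each step. The log2 change was -0.72 ± 0.15 at 1 h (adjusted p = 0.002033), which did not pass with D3 to D6 fitted beside the MPH cultures (-0.53, adjusted p = 0.3173). At 2 h it was -1.11 ± 0.15 (adjusted p = 6.899e-06), a ratio of means of 3.58-fold lower. Sik1 was at 9.31 ± 2.69% of the summed SIK RPKM at 1 h and 6.60 ± 2.60% at 2 h.

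Crtc2, best known from the fasting response of the liver, ranged from 4.76 to 8.49 RPKM at 0 h (median 6.12), 6.06 to 12.0 RPKM at 1 h (median 8.38) and 8.33 to 13.51 RPKM at 2 h (median 12.71). The ranges overlapped by little between 0 and 2 h, and all 7 cultures rose at both steps. The change was 0.39 ± 0.16 at 1 h (adjusted p = 0.0955, or 0.001187 with the culture as a fixed block, under which 53.5% of genes were called) and 0.80 ± 0.16 at 2 h (adjusted p = 0.0003571). With D3 to D6 fitted beside the MPH cultures the value at 2 h was 0.72 and did not pass (adjusted p = 0.05639). Crtc2 took 62.0 ± 2.94% of the summed CRTC RPKM at 0 h and 81.2 ± 7.29% at 2 h.

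Crtc1, the CRTC best known from the brain, ranged from 1.00 to 2.10 RPKM at 0 h (median 1.44) and from 0.39 to 1.33 RPKM at 2 h (median 0.69). It was lower at 2 h in 7 of 7 cultures, by -0.61 ± 0.13 (adjusted p = 0.0005358), although the ranges overlapped. It did not pass with D3 to D6 fitted beside the MPH cultures (-0.56, adjusted p = 0.07678), and neither did Trib3 (-1.01, adjusted p = 0.1844), Sik2 (-0.30, adjusted p = 0.08376) or Crtc3 (-0.39, adjusted p = 0.2697). Trib3 went from 2.69 to 19.99 RPKM (median 6.97) to 2.07 to 6.79 RPKM (median 3.10). It too was lower in 7 of 7 cultures with overlapping ranges, by -1.01 ± 0.36 (adjusted p = 0.02277). This call was lost without UKD (-0.76, adjusted p = 0.1006), without D6 (-0.96, adjusted p = 0.06268) and with median-of-ratios scaling (-0.77, adjusted p = 0.1108). The other calls at 2 h were small: Sik2 changed by -0.25 ± 0.09 (adjusted p = 0.02116) and Crtc3 by -0.39 ± 0.16 (adjusted p = 0.04688). With median-of-ratios scaling they were at -0.02 and -0.17 and did not pass. Sik2 was also lost without D5 (adjusted p = 0.07999) or D6 (adjusted p = 0.05307). Crtc3 was lost when D5, D6, r1, r2 or UKD was left out, with adjusted p from 0.08339 to 0.1138. Sik3 was at 0.00 ± 0.12 and is the gene of the 9 that was not called.

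The Sik2 range was 2.77 to 3.75 RPKM at 0 h (median 3.40), 2.49 to 3.40 RPKM at 1 h (median 3.06) and 2.26 to 3.34 RPKM at 2 h (median 2.76). The ranges overlapped at all times, although all 7 cultures were lower at 2 h than at 0 h. With the culture as a fixed block its change at 1 h, -0.15, also passed (adjusted p = 0.04878). Sik3 lay between 3.49 and 4.36 RPKM at 0 h, 3.81 and 6.72 RPKM at 1 h and 2.58 and 5.34 RPKM at 2 h. Its medians of 3.91, 4.06 and 3.83 RPKM were close together, and 4 of 7 cultures were higher at 2 h than at 0 h. Sik1 thus had a smaller mean share of the summed SIK RPKM at each later time. Trib1 went the other way against Trib3, from 11.7 ± 4.81% of their summed RPKM at 0 h to 56.0 ± 13.8% at 1 h and 54.6 ± 14.3% at 2 h.

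From 1 to 2 h of LPS under DMSO, 3 of the 9 genes were called, Nuak2, Trib1 and Crtc1, all lower, where 15.4% of genes were lower and 22% were called. With the culture as a fixed block 7 of the 9 genes and 49.2% of all genes were called. Crtc2 then rose (0.42, adjusted p = 0.0006048), and Sik1 (-0.39, adjusted p = 0.01544), Crtc3 (-0.32, adjusted p = 0.02364) and Trib3 (-0.76, adjusted p = 0.003947) fell. The call for Crtc1 (-0.46 ± 0.13, adjusted p = 0.01319) was lost with D3 to D6 fitted beside the MPH cultures (-0.44, adjusted p = 0.359) and without D6 (adjusted p = 0.06149) or r1 (adjusted p = 0.06036).

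Among the upstream and partner genes under DMSO at 2 h, the LKB1 complex had 4 of 5 genes lower, led by the adaptor gene Stradb (-0.45 ± 0.09, adjusted p = 0.000273), with a list median of -0.40. The PKA list had 4 of 7 tested lower, among them the catalytic subunit gene Prkaca (-0.41 ± 0.08, adjusted p = 0.0003021). Class IIa HDACs and MEF2 factors, which include SIK substrates, had 4 of 7 lower, with Hdac5 at -0.86 ± 0.16 (adjusted p = 0.0002355). The 14-3-3 family had 2 of 7 lower, and calcineurin had 0 of 4. CREB factors and coactivators had 2 of 5 lower and 1 higher, and CREB target genes had 2 of 9 tested lower and 5 higher. These counts stand against 43.6% of all genes lower, 10.5% higher and a median of -0.25. Of the 6 tested AMPK-related kinases that are not among the 9 genes, Mark2 rose by 1.07 ± 0.17 (adjusted p = 3.407e-05) and Snrk fell. Of the 6 Tribbles partners tested, 3 were lower and 2 higher, with a list median of -0.14. The client gene Cebpa (-1.97 ± 0.32, adjusted p = 4.483e-05) and Det1, which encodes a COP1 partner (-0.56 ± 0.10, adjusted p = 9.026e-05), fell, while Cebpb (1.91 ± 0.42, adjusted p = 0.000876) and the ligase gene Cop1 (0.49 ± 0.14, adjusted p = 0.006026) rose. Of the stress genes known with Trib3, Ppp1r15a was higher, Sesn2 (-1.03 ± 0.22) and Ddit3 (-1.21 ± 0.28) were lower, and 3 of 6 did not pass.

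Under MPH, the fall of Sik1 and Nuak2 between 0 h and 2 h of LPS was larger than under DMSO, from the higher starting levels given above. At 1 h under MPH 2 of the 9 genes were called, both lower, where 1.18% of genes were lower and 3.08% were called. At 2 h 4 of the 9 were called, all lower, where 14.7% were lower and 20.7% were called. These comparisons share their 0 h libraries with the comparison of MPH and DMSO at 0 h.

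Sik1 reached 1.90, 1.49 and 0.71 RPKM at 1 h and 0.58, 0.15 and 0.42 RPKM at 2 h in M2, M3 and M4. All 3 cultures fell at each step, and no later library overlapped with those at 0 h. The log2 change was -2.50 ± 0.28 at 1 h (adjusted p = 1.44e-05, and -2.21 with adjusted p = 0.0001023 without the 1 h library of M4) and -3.55 ± 0.28 at 2 h (adjusted p = 9.023e-08). The means at 0 and 2 h differed 25.5-fold, with the lowest value, that of M3 at 2 h, resting on about 21 reads.

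Nuak2 in M2, M3 and M4 was at 7.66, 7.75 and 6.36 RPKM at 1 h and at 2.72, 2.25 and 1.79 RPKM at 2 h. It fell at each step in every MPH culture, whereas 5 of 7 DMSO cultures had a higher level at 1 h than at 0 h. The change was -1.31 ± 0.20 at 1 h (adjusted p = 0.0004812, and -1.22 with adjusted p = 0.003544 without the 1 h library of M4) and -2.81 ± 0.20 at 2 h (adjusted p = 2.369e-08), and the means at 0 and 2 h differed 8.29-fold.

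Trib1 was at 10.93, 6.47 and 8.39 RPKM at 1 h and at 6.24, 2.25 and 6.91 RPKM at 2 h under MPH. It was higher at 1 h than at 0 h in 3 of 3 cultures, but the change of 0.63 ± 0.31 did not pass (adjusted p = 0.5471, or 0.483 without the 1 h library of M4). At 2 h the value was -0.16 ± 0.31, with M3 below its own 0 h level. Sik2 (-0.58 ± 0.15, adjusted p = 0.008894) and Crtc3 (-0.84 ± 0.29, adjusted p = 0.04845) were the other genes called at 2 h. Sik2 was lost without M2 (adjusted p = 0.05779) or M4 (adjusted p = 0.1309). Crtc3 was lost without M3 (adjusted p = 0.2643), M4 (adjusted p = 0.3562), D4 (adjusted p = 0.05025) or D5 (adjusted p = 0.0655). With median-of-ratios scaling neither passed, with adjusted p of 0.1283 for Sik2 and 0.1919 for Crtc3.

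With the culture as a fixed block, 7 of the 9 genes and 54.5% of all genes were called at 2 h under MPH. Crtc2, at 6.37, 5.27 and 10.91 RPKM at 0 h, was at 7.98, 13.04 and 14.23 RPKM at 2 h in M2, M3 and M4. Trib3 was at 10.66, 4.16 and 15.47 RPKM at 0 h and at 5.11, 2.22 and 6.13 RPKM at 2 h. Both overlapped between times as groups, yet every culture moved the same way. The added calls were Trib3 (-1.01, adjusted p = 0.0001104), Crtc1 (-0.56, adjusted p = 0.01757) and Crtc2 (0.63, adjusted p = 0.004189). At 1 h the block added Trib3 (-0.50, adjusted p = 0.04459), where 12.1% of all genes were called. Without the 1 h library of M4 and without a block Trib3 was at -1.02 (adjusted p = 0.5599). That fit kept the 0 h library of M4, the highest under MPH at 15.47 RPKM, so -1.02 also holds a difference between cultures. Within cultures the change at 1 h was -0.61 in M2, -0.66 in M3 and -0.22 in M4. The block was not fitted without the 1 h library of M4.

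**Figure D3:**
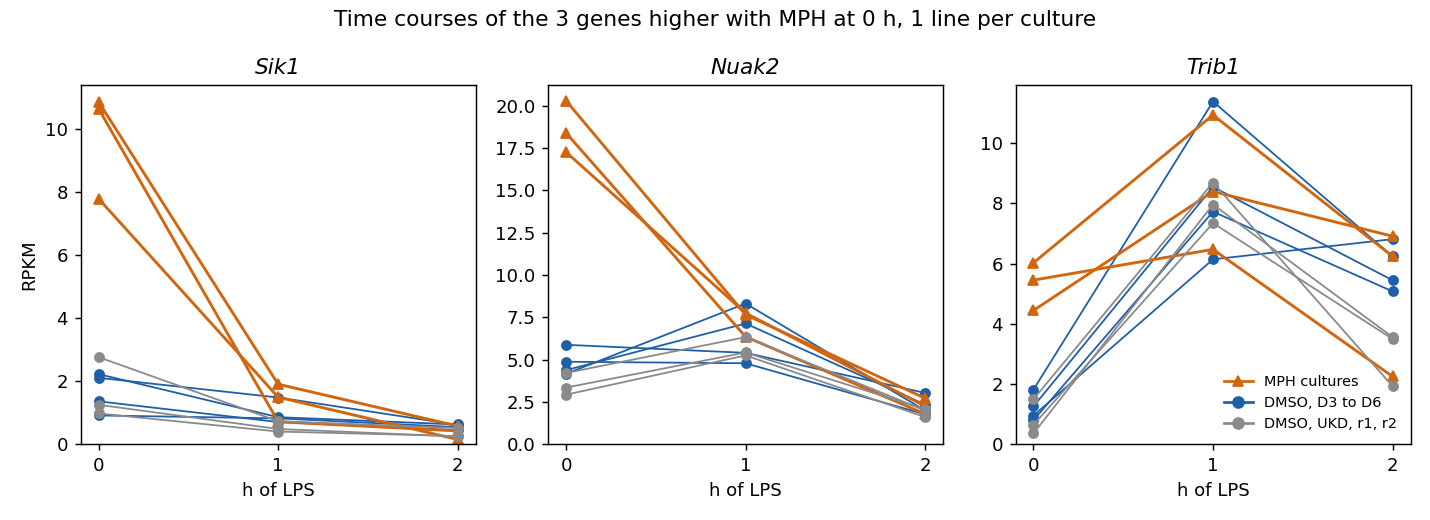
RPKM of Sik1, Nuak2 and Trib1 against h of LPS, 1 line per culture, with MPH cultures as orange triangles and DMSO cultures as blue (D3 to D6) or grey (UKD, r1, r2) circles. The MPH lines start above all DMSO lines at 0 h; for Sik1 and Nuak2 they fall at each step, and for Trib1 they reach 6.47 to 10.93 RPKM at 1 h, beside 6.14 to 11.38 RPKM under DMSO.

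The difference between the LPS responses was tested as an interaction. It contains the difference between MPH and DMSO at 0 h, since both responses start from those libraries. At 2 h it was called for 2 of the 9 genes, both lower, where 0.107% of all genes were called and 0.0879% were called lower. The share of 0.107% fell to between 0 and 0.0589% when any 1 culture was left out. Sik1 had an interaction of -2.57 ± 0.37 and Nuak2 of -1.87 ± 0.26, both with an adjusted p of 0.006238. Neither passed without D5 (adjusted p = 0.05717 for Sik1 and 0.08896 for Nuak2) or without M3 (0.09206 for both). Without M4, Nuak2 did not pass (adjusted p = 0.06991) and Sik1 did (0.03276). Trib1 had an interaction of -2.10 ± 0.41 that missed the threshold (adjusted p = 0.06508) and passed with the culture as a fixed block (0.003283), where 1.43% of genes were called.

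At 1 h no gene of the 9 and 0% of all genes had a called interaction in limma; 3 of the 9 and 83 of 10239 genes had an unadjusted p under 0.05. The 3 were Nuak2 (-1.66 ± 0.26, adjusted p = 0.06476), Sik1 (-1.97 ± 0.37, adjusted p = 0.1278) and Trib1 (-1.77 ± 0.41, adjusted p = 0.4776). Without the 1 h library of M4 they were at -1.58, -1.68 and -1.77 and did not pass (adjusted p = 0.1777, 0.4221 and 0.8975). With the culture as a fixed block all 3 passed (0.006517, 0.008449 and 0.03145), among 0.195% of genes. The block fit included the 1 h library of M4 and was not run without it. The interactions of the other 6 genes at 2 h lay between -0.45 for Crtc3 and 0.16 for Sik3.

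The level of Trib3 varied widely between cultures of the same treatment. At 0 h Trib3 was at 11.14 RPKM in D3 and 10.66 RPKM in M2, at 4.05 RPKM in D4 and 4.16 RPKM in M3, and at 14.37 RPKM in D5 and 15.47 RPKM in M4. At 2 h the same pairs were at 5.82 and 5.11, 2.07 and 2.22, and 6.79 and 6.13 RPKM. Each MPH culture thus lay close to 1 DMSO culture in its Trib3 level. For Crtc2 the same pairs were at 5.93 and 6.37, 4.76 and 5.27, and 8.49 and 10.91 RPKM at 0 h. Over 10355 genes, the deviations of these pairs from their group means at 0 h had correlations of 0.87, 0.90 and 0.90, whereas D3 and M3, and D4 and M4, which share a number, had -0.39 and -0.64. The labels do not link the cultures in these pairs, so the fits did not use them.

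**Figure D4:**
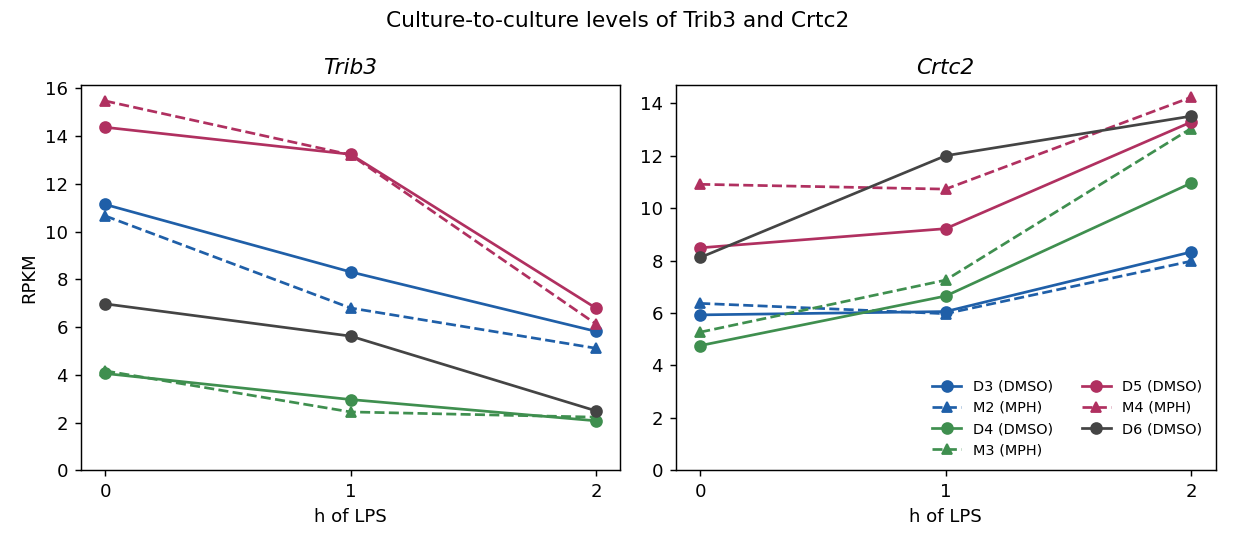
RPKM of Trib3 and Crtc2 against h of LPS in D3 to D6 (circles, solid lines) and M2 to M4 (triangles, dashed lines), coloured alike for D3 and M2, D4 and M3, and D5 and M4. For Trib3 the lines of like colour lie close together, as at 0 h for D4 (4.05) and M3 (4.16), and differ between colours.

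Over the 30 libraries, the genes with levels most like those of each member by Pearson r of log2(RPKM + 0.5), among 10355 genes, were as follows. Sik1 was most like Zcchc14 (r = 0.92) and Thbd (0.91), the gene of thrombomodulin. Nuak2 was most like the clock gene Per1 (0.91) and again Zcchc14 (0.88). Trib1 was most like Ifrd1 and Mcl1 (0.87 each), Crtc2 most like the NF-κB subunit gene Rela (0.92), and Crtc1 most like Ski (0.91). Trib3 was most like Soat2 (0.90), Crtc3 most like Mef2d (0.86), Sik3 most like Cmip (0.88) and Sik2 most like Adi1 (0.79). These are descriptions over libraries that share cultures, treatments and times.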

How the data were processed

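RNA sequencing of 30 libraries was deposited as a single table of RPKM values, computed by the authors, for 44401 RefSeq transcripts under 24761 symbols. FastQC, cutadapt, HISAT2, SAMtools and the build mm9 are named, without versions for the tools, per the submitters' processing notes. How reads were counted, with or without strand, was not given in the sources used here. Without strand, reads of Sik2 and of the overlapping gene Ppp2r1b (mean 7.94 RPKM), and of Sik1, Sik3, Nuak2 and Crtc3 and the RefSeq models that overlap them, cannot be told apart.

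The transcript with the highest mean per symbol was kept (Nuak2 has 2 and Crtc2 has 3). Genes that reached 1 RPKM in 3 or more libraries were tested on log2(RPKM + 0.5) with the trend method of limma (version 3.58.1, in R 4.3.3). Benjamini-Hochberg adjusted p below 0.05 was the threshold. The 10239 genes fitted in the D and M cultures gave every comparison that involves MPH. For LPS under DMSO, 10212 genes were fitted in all 7 DMSO cultures, with a term for the first letters of the name (D, UKD, r). The fits were tested on simulated data in which libraries were independent. Such data cannot show how the fits behave when libraries share a culture. No value in the table is 0, so very low values are upper limits. Depth was estimated with lengths from GENCODE M21 and covers the reads the authors counted. The median of RPKM times length over 5999 transcripts under 0.1 RPKM in all libraries was taken as 1 read. The 6 h time that the design text names was not analysed.

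The culture name pairs the 3 times: libraries of a culture deviated together from their group means, with correlations of 0.62 to 0.91 over 10355 genes. The main fits took libraries as independent, although the limma estimate of the correlation within a culture was 0.71 in the D and M cultures. Results that changed with the culture as a block are given beside the main values. Each ± in the text is an SD over libraries for a level or share and an SE for a log2 difference. The members and the lists were chosen with earlier results of these data known; members are all named, and up to 4 called genes per list and comparison could be named, those with the smallest p. The alternatives were other pseudocounts, filters, scalings, covariates, library weights, blocks, transcript sums and sets of libraries.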

Additional observations from a re-analysis of the deposited data

Results flagged for a closer look

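At 1 h under DMSO the D6 library had the highest Sik1, 1.48 RPKM, with the next library at 0.858 RPKM, and the highest Sik3, 6.72 RPKM, with the next at 4.44 RPKM. Each gap was large for a group of 7 by Dixon's criterion. Of 27 groups examined 2 stood out in this way, and chance gives about 1 in 20. D6 at 1 h was also the shallowest library, with about 5.38 M reads (M, mega), and the part of depth in these values was not tested. The LPS response at 2 h differed between MPH and DMSO for Sik1, by -2.57, and for Nuak2, by -1.87. These values contain the log2 differences between MPH and DMSO at 0 h, 2.29 for Sik1 and 1.85 for Nuak2. At 2 h itself MPH and DMSO differed by -0.29 for Sik1 and -0.01 for Nuak2, and neither was called. Neither difference in response passed without D5 or without M3.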

How the results depend on the processing

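No called value of the 9 genes changed sign in 1668 recomputed values. Of these, 49 lost and 34 gained a call, and 89 uncalled values changed sign. Counts of called genes among the 9 moved as follows, with the cause not tested. For MPH against DMSO at 2 h the count was 1 in place of 0 with all 7 DMSO cultures (with or without the covariate) and with library weights. In those fits 3.91%, 3.24% and 2.6% of all genes were called, against 0.869% in the main fit. For LPS under DMSO it was 1 in place of 3 at 1 h, 3 in place of 8 at 2 h and 1 in place of 3 from 1 to 2 h with D3 to D6 fitted beside the MPH cultures, where the cultures, the covariate and the shared spread all differ. The share of all genes called fell as well, to 4.9% from 20.3%, 26.4% from 54.1% and 3.98% from 22%. With median-of-ratios scaling, and with a filter of 3 RPKM, which leaves fewer genes tested, the count was 5 at 2 h under DMSO. Of all genes tested, 37% were called with that scaling and 52.5% with that filter. Under that filter Sik1 and Crtc1 were not tested there, and Crtc3 lost its call (adjusted p = 0.05402). With library weights the count was 6 from 1 to 2 h under DMSO, where 38.3% of all genes were called. The scaling left 2 in place of 4 at 2 h under MPH, where 13.8% of all genes were called in place of 20.7%. The replicate block gave 5 at 1 h and 7 from 1 to 2 h under DMSO, 7 at 2 h under MPH and 3 in place of 0 for the interaction at 1 h; other changes with it stand in the report. That interaction count was 2 with all 7 DMSO cultures or a pseudocount of 1, and 1 with library weights or median-of-ratios scaling. In the order named, 0.0966%, 0.0195%, 0.00977% and 0.00981% of all genes were called. Leaving out each culture in turn gave 3 for MPH at 0 h, 0 at 1 and 2 h, 2 to 4, 5 to 8 and 2 to 3 for the LPS comparisons under DMSO, 2 and 2 to 4 for those under MPH, 0 to 1 for the interaction at 1 h and 0 to 2 at 2 h. The lowest counts came without D6 (5, LPS under DMSO at 2 h), without M4 (2, LPS under MPH at 2 h) and without D5 or M3 (0, interaction at 2 h). In the same order, 49.3%, 8.65%, 0.00981% and 0% of all genes were called. Depth limits the low levels most: in the shallowest library a single read on 2 kb of transcript was worth 0.093 RPKM.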
